A study of Saccharomyces cerevisiae with 12 samples.

Results

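Transcripts of the laboratory reference strain of Saccharomyces cerevisiae, CEN.PK113-7D, were compared between cultures grown without oxygen and cultures grown with air. The comparison took 6 of the 12 arrays of the series, 3 anaerobic and 3 aerobic chemostat cultures hybridized singly to Affymetrix arrays, and covered all 9275 yeast probe sets, of which 6504 named a single gene. The other 6 arrays were of strains whose cytosolic acetyl-CoA route had been replaced. They were fitted together with the reference arrays, which share the estimate of spread with them, and are compared at the end. The study asked how such replacements affect the cell, and the reference cultures are its controls.

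CEN.PK113-7D is a haploid prototroph of genotype MATa MAL2-8C SUC2 and carried no engineered change in either group. Every culture was a glucose-limited chemostat, in which fresh medium sets a constant growth rate, here a dilution rate of 0.1 per h, at 30 °C and pH 5.0, stirred at 800 rpm. Aerobic cultures received air at 500 mL per min and a feed with 7.5 g per L glucose, with a Pluronic antifoam at 0.15 g per L. Anaerobic cultures received nitrogen at 500 mL per min and a feed with 20 g per L glucose, ergosterol at 10 mg per L and Tween 80, a source of oleic acid, at 420 mg per L, with antifoam C at 0.2 g per L. The gas, the glucose in the feed, both lipid supplements and the antifoam changed together, so their parts cannot be told apart, and "without oxygen" below stands for the whole condition. The chemostat numbers name separate cultures of 1 strain. IMZ305, grown with air, lacked ALD2 to ALD6, ACS1 and ACS2 and carried a plasmid with URA3 and E. coli eutE. The anaerobic strain IMZ383 had both ACS genes deleted, with E. coli pflB and pflA on a URA3 plasmid.

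Yeast uses molecular oxygen for more than respiration. Oxygen is a substrate in the synthesis of heme, of ergosterol and of unsaturated fatty acids, and heme and sterol levels are how the cell senses it. With heme present, the activators Hap1 and the Hap2/3/4/5 complex drive respiratory genes, and Hap1 drives ROX1, whose product represses hypoxic genes. When sterol runs short, Upc2 drives sterol uptake and the DAN and TIR cell wall mannoproteins. Several proteins exist as pairs of isogenes, 1 used with air and 1 without. Under glucose limitation with air, residual glucose is so low that genes for other carbon sources escape repression, while cells without oxygen ferment.

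The arrays had been scaled to a common level: the mean without the lowest and highest 2% lay at 150.12 to 150.15 on all of them. The median signal was still 47.0 to 48.7 on the aerobic and 34.8 to 38.5 on the anaerobic reference arrays. Correlations of log2 signal were 0.966 to 0.974 among aerobic and 0.973 to 0.981 among anaerobic arrays. The 3' to 5' signal ratio of ACT1, a measure of RNA integrity, was 1.24 to 1.96 with air and 1.67 to 1.90 without oxygen and overlapped. The hybridization control BioB read 12.0, 8.63 and 59.9 on aerobic arrays 1 to 3 and 62.1 to 72.0 on the anaerobic arrays, so 2 aerobic arrays stood apart in it. Non-target control probe sets reached at most 7.5, and 74.1% to 81.7% of probe sets lay above the highest such control of their array. Of the oxygen state markers, DAN1, TIR1, TIR3, ANB1, AAC3 and COX5B were all higher without oxygen and CYC1, COX5A and CTA1 all lower, with no overlap between groups. Across all genes, 52.6% showed no overlap in either direction.

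Without oxygen, 1018 probe sets were higher (11.0%) and 2157 lower (23.3%) than with air, in limma at a Benjamini-Hochberg adjusted p under 0.05, which is what "called", "rose" and "fell" mean below. With only the 6 reference arrays in the fit, 766 probe sets were higher and 1767 lower. Counted over 5656 genes with a probe set of their own, 570 rose (10.1%) and 1837 fell (32.5%). At least 2-fold rises numbered 267 (4.72%) and such falls 835 (14.8%). By the fitted value, with signals under the floor of 1.1 set to it, 12 genes rose and 20 fell at least 32-fold. Each array read RNA pooled from a whole culture, so fewer cells carrying a transcript and less of it per cell cannot be told apart. The 3 anaerobic arrays did not overlap the 3 aerobic arrays in 13.5% of genes in the higher and 39.1% in the lower direction, 52.6% in all, and over probe sets the share was 43.4%. Signals below are the deposited values with SD over 3 arrays, log2 changes carry their SE, and each log2 value is a difference, without minus with oxygen.

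The balance between rises and falls depended on scaling. The median gene lay at -0.30 on the log2 scale with the values as deposited, at -0.04 after quantile normalization and at 0.10 after centring each array on its median. Genes that rose made up 23.7%, 41.3% and 57.9% of the calls under these scalings. Where the median of a list turned sign under these scalings, that is said beside the list.

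The DAN and TIR genes had the highest median change of the 36 lists. They encode serine- and alanine-rich mannoproteins that replace other mannoproteins in the wall of anaerobic cells, and of 7 measured 6 rose and 0 fell, with a median of 5.12, against rises in 10.1% of all genes. DAN1 read 6.7, 2.0 and 9.4 on the aerobic arrays and 3692.4, 3105.9 and 3365.3 on the anaerobic arrays. On 2 aerobic arrays the value lay under the non-target controls, so that the rise was at least 488-fold (log2 9.40 ± 0.52, adjusted p = 1.73e-06). TIR1 read 94.1, 85.2 and 101.8 with air and 7536.2, 7300.9 and 6386.4 without oxygen. Its rise was 75.5-fold (adjusted p = 3.21e-08), and the groups lay far apart. TIR4 rose 38.9-fold, from 80.6 ± 23.2 to 3107 ± 806, and TIR3 rose 34.7-fold, from 105 ± 25.7 to 3577 ± 429. TIR2 rose less, 8.21-fold, from 89.0 ± 20.1 to 729 ± 148. PAU23, counted here and among the PAU genes below, rose 2.46-fold, from 157 ± 27.6 to 387 ± 66.9. DAN4 read 139.1, 61.8 and 152.8 with air and 391.6, 158.0 and 181.4 without oxygen, a difference that did not pass (log2 1.03 ± 0.47, adjusted p = 0.124) although the groups did not overlap.

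Cwp1 and Cwp2 are the mannoproteins of the aerobic wall. CWP2 read 3927.0, 2891.5 and 4446.8 with air and 1068.6, 1695.7 and 1678.5 without oxygen, a fall of 2.55-fold (adjusted p = 0.000791). CWP1 did not pass, at 205 ± 52.7 against 292 ± 89.1, with overlapping groups. The PAU genes, a large subtelomeric family related to DAN and TIR, were read by 10 probe sets that the array design marks as shared between family members, so single genes cannot be told apart. All 10 rose, from log2 0.56 for PAU17 to 2.65 for PAU10, with a median of 1.41. Against aerobic array 3 alone, the aerobic array with high BioB, the median was 1.55. PAU4 had the smallest error, at 158 ± 19.1 with air and 969 ± 52.0 without oxygen.

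**Figure D1:**
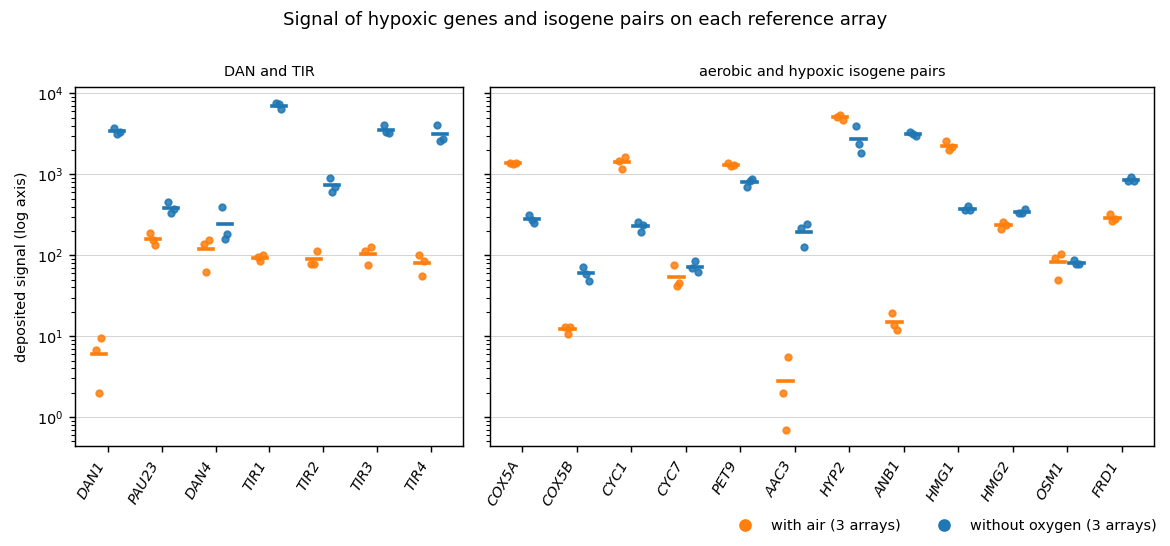
Deposited signal (vertical log axis) of the DAN and TIR genes and of the isogene pairs on the 3 aerobic (orange) and 3 anaerobic (blue) reference arrays, with points for arrays and bars for group means. Signals of different genes are not on a common scale. ANB1 differs 216-fold and DAN1 at least 488-fold between groups, while DAN4 lies closer and the arrays of CYC7 and OSM1 overlap.

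Most isogene pairs moved apart, the aerobic partner down and the hypoxic partner up, but hypoxic CYC7 and aerobic OSM1 were not called. Of 6 aerobic partners 5 fell and 0 rose (median -1.64), and of 6 hypoxic partners 5 rose and 0 fell (median 1.93). ANB1, the hypoxic form of translation factor eIF5A, gave the widest separation: 19.2, 13.8 and 12.0 with air against 3378.2, 3186.3 and 2958.2 without oxygen, 216-fold (adjusted p = 1.53e-07). HYP2, its aerobic partner, is so similar in sequence that its probes may read both, which was not tested. It read 5178.9, 5360.5 and 4674.3 with air and 3999.0, 2368.4 and 1813.0 without, 1.96-fold lower (adjusted p = 0.0148). ANB1 lies beside CYC1 on chromosome X, and these neighbours moved in opposite directions. CYC1, the main cytochrome c, read 1452.3, 1172.8 and 1625.1 with air and 258.5, 193.9 and 235.5 without, 6.17-fold lower (adjusted p = 2.63e-05). Its partner CYC7 overlapped, at 54.2 ± 18.2 and 72.1 ± 11.0 (adjusted p = 0.169).

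The subunit 5 pair of cytochrome c oxidase exchanged almost symmetrically. COX5A fell 4.97-fold, from 1373 ± 37.9 to 278 ± 31.9, and COX5B rose 4.86-fold, from 12.1 ± 1.33 to 59.5 ± 12.1. AAC3, the ADP/ATP carrier used without oxygen, read 2.0, 0.7 and 5.6 with air, all under the controls, and 215.0, 126.3 and 245.2 without. That was a rise of at least 31.4-fold (adjusted p = 2.21e-05), while PET9, the main carrier, fell 1.64-fold from 1313 ± 58.6 to 804 ± 86.9. HMG1, the main HMG-CoA reductase with air, fell 5.99-fold, from 2259 ± 294 to 376 ± 26.9, and HMG2 rose 1.46-fold, from 236 ± 25.4 to 345 ± 22.7. FRD1, a soluble fumarate reductase that reoxidizes FADH2 without oxygen, rose 2.98-fold, from 289 ± 29.2 to 859 ± 56.6. OSM1, the mitochondrial form, gave 81.9 ± 29.0 and 80.7 ± 5.84 with overlap. With median centring the falls of PET9 and HYP2 were not called, and the list of aerobic partners kept 3 of its calls.

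Of 9 genes of heme synthesis and breakdown 3 rose (33.3%) and 2 fell (22.2%), against 10.1% and 32.5% of all genes. The median was 0.03, close to 0 but above that of all genes. HEM13, coproporphyrinogen oxidase, the step that takes oxygen, read 44.4, 51.1 and 26.4 with air and 781.7, 548.7 and 740.7 without, a 17.4-fold rise (log2 4.12 ± 0.27, adjusted p = 5.07e-06). HMX1, the heme oxygenase that breaks heme down with oxygen, fell 19.8-fold, from 324 ± 31.4 to 16.4 ± 2.23 (adjusted p = 1.66e-07). HEM12 and HEM15, the steps just before HEM13 and the final insertion of iron, rose 1.63-fold and 1.52-fold, and HEM4 fell 1.37-fold. The falls were 1 rather than 2 without aerobic array 1 or 3 or without anaerobic array 3. HEM14, the other late step that can use oxygen, was 127 ± 4.59 and 130 ± 15.2 and was not called.

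Among 14 regulators of oxygen, heme and sterol response, 2 rose (14.3%) and 4 fell (28.6%), near the 10.1% and 32.5% of all genes. Their median of -0.15 turned positive under both other scalings. SUT1, which promotes sterol uptake, rose 3.34-fold, from 80.1, 60.2 and 56.0 to 325.4, 178.8 and 172.9, and UPC2 rose 2.67-fold, from 53.8, 48.3 and 50.9 to 186.8, 122.7 and 109.9. In both, anaerobic array 1 was the highest. ROX1, the repressor of hypoxic genes, read 53.1, 42.9 and 38.4 with air and 18.6, 12.1 and 16.7 without, 2.86-fold lower (adjusted p = 0.00139). HAP4, the activating and regulated subunit of the Hap complex, fell 2.23-fold, from 552 ± 176 to 239 ± 19.1, and HAP3 fell 2.36-fold. MOT3, a repressor that acts beside Rox1, was dim and fell at least 1.65-fold. HAP1 was read by 3 probe sets that disagreed. The brightest, of a kind shared between sequences, was not called, at 285 ± 70.0 and 418 ± 261, another shared one was higher (log2 1.16), and the unshared one was not called, at a log2 change of -0.30.

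Sterol genes divided at squalene. Of 10 genes of the mevalonate pathway up to squalene, 6 fell (60%), only HMG2 rose (10%) and the median was -0.60. Of the 14 genes from squalene to ergosterol, where some but not most steps use oxygen, 6 rose (42.9%), only ERG5 fell (7.14%) and the median was 0.36. Among all genes the shares were 10.1% and 32.5%. Beside HMG1, the largest fall was IDI1, isopentenyl diphosphate isomerase, at 229.1, 268.2 and 256.7 with air and 87.4, 76.6 and 74.7 without (3.16-fold, adjusted p = 2.40e-05). ERG13 fell 1.70-fold, ERG8 1.79-fold, ERG20 1.58-fold and MVD1 1.47-fold. NCP1, the reductase that feeds electrons to the oxygen-using steps, rose from 321.4, 279.9 and 311.0 to 814.6, 678.8 and 697.0, which is 2.40-fold (adjusted p = 6.83e-05). ERG26 rose 1.96-fold, ERG4 1.84-fold, ERG24 1.59-fold, ERG2 1.42-fold and ERG28 1.40-fold. ERG1, squalene epoxidase, and ERG11, lanosterol demethylase, take oxygen themselves and were not called, at 784 ± 202 against 1025 ± 86.3 and at 2526 ± 193 against 2658 ± 110. ERG5, the desaturase of the side chain, fell 1.88-fold, from 429 ± 87.7 to 227 ± 34.5.

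These late-pathway counts were fragile. Without anaerobic array 2 or without anaerobic array 3 the rises after squalene were 3 rather than 6. They were 4 after quantile normalization and 9 after median centring. The falls before squalene were 5 or 6 without any single array and 2 with median centring. Against aerobic array 3 alone, the aerobic array with high BioB, the medians were -0.67 before and 0.31 after squalene.

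**Figure D2:**
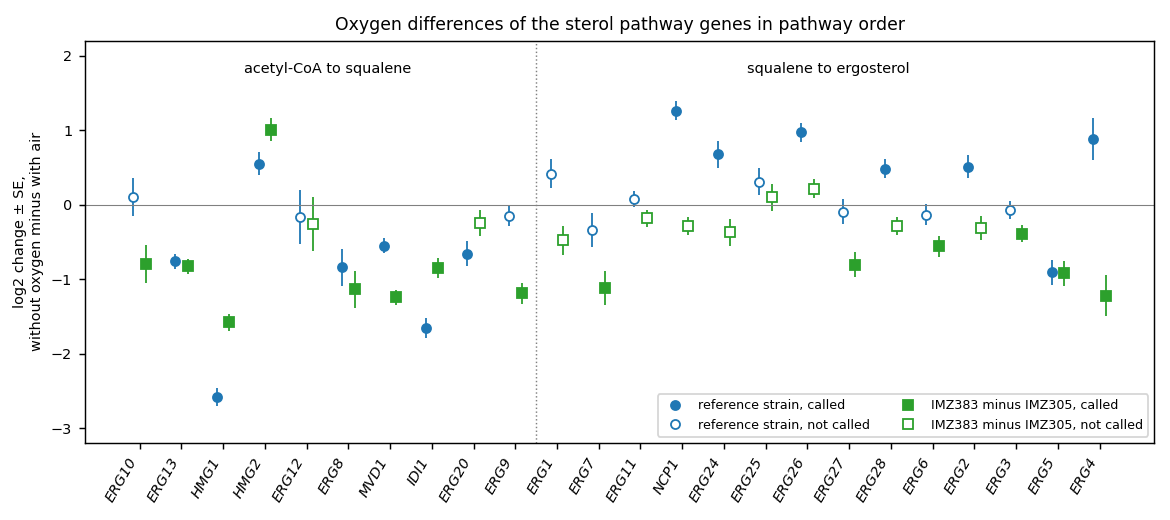
Log2 change with its SE (vertical axis) for 24 sterol genes in pathway order, in the reference strain (blue circles) and between IMZ383 without oxygen and IMZ305 with air (green squares); filled symbols are called. In the reference strain HMG1 lies lowest at -2.58 and NCP1 highest at 1.26, while 0 of the 14 green points after squalene are called above 0.

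Of 9 genes of sterol import, storage and acetylation 5 rose (55.6%) and 3 fell (33.3%), with a median of 0.51. Among all genes 10.1% rose and 32.5% fell, so the share of falls was near that of all genes. AUS1, an importer of external sterol, read 67.2, 47.3 and 57.0 with air and 590.4, 414.3 and 318.6 without, 7.55-fold higher (adjusted p = 1.00e-05), and the second importer PDR11 rose 3.71-fold. The sterol ester synthases moved in opposite directions: ARE1 rose 7.81-fold, from 42.4 ± 5.51 to 330 ± 25.5, and ARE2 fell 3.09-fold, from 64.5 ± 5.86 to 21.3 ± 5.32. A second opposite pair acts on sterol acetates. ATF2, the acetyltransferase, rose 7.14-fold, from 44.1 ± 5.81 to 313 ± 22.7, and SAY1, the deacetylase, fell 1.92-fold, from 85.7 ± 6.93 to 44.6 ± 2.95. TGL1, a steryl ester hydrolase, fell 1.28-fold (log2 -0.36), and under both other scalings it lay just above 0 and was not called.

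Of 13 fatty acid genes 5 rose and 5 fell, 38.5% each against 10.1% and 32.5% of all genes. Their median of -0.02 came to 0.38 with median centring. The rises were 3 without aerobic array 2 or 3 or without any one anaerobic array, and the falls 3 without aerobic array 1. The largest falls were in activation of fatty acids for use: FAA2, the peroxisomal acyl-CoA synthetase, fell 9.28-fold, from 301 ± 41.2 to 32.3 ± 3.55, and FAA1 fell 7.96-fold, from 154 ± 56.4 to 20.4 ± 11.3. Hydroxylases of sphingolipids, which use oxygen, rose: SUR2 2.55-fold, from 154 ± 28.4 to 389 ± 41.5, and SCS7 2.16-fold, from 512 ± 32.1 to 1109 ± 59.4. FAS1, a fatty acid synthase subunit, fell 1.52-fold on its brightest probe set, while of 7 other probe sets of it 1 fell and 6 were not called. OLE1, the oxygen-using fatty acid desaturase, read 2473.0, 1948.0 and 2421.3 with air and 2925.8, 2931.7 and 2683.7 without. That 1.25-fold rise passed narrowly (adjusted p = 0.0493) and was lost after quantile normalization and without any one array except aerobic array 1. ACC1, acetyl-CoA carboxylase, was at the same margin in the other direction, 1.29-fold lower (adjusted p = 0.0493).

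Nuclear genes of respiration fell along the whole chain, against falls in 32.5% of all genes. Of the 6 NADH, glycerol-3-phosphate and lactate dehydrogenases of mitochondria, all 6 fell (median -3.18). In the bc1 complex with cytochrome c 8 of 11 fell and 0 rose (median -1.38). Of 9 nuclear genes of cytochrome c oxidase 7 fell and COX5B rose (median -1.09), and in ATP synthase 14 of 16 fell (median -0.77). CYB2, lactate dehydrogenase, read 1220.2, 1552.9 and 1604.9 with air and 23.3, 15.7 and 16.6 without, 79.4-fold lower (adjusted p = 3.16e-08). The external NADH dehydrogenases NDE2 and NDE1 fell 18.1-fold and 11.6-fold, the glycerol-3-phosphate dehydrogenase GUT2 7.08-fold, the internal NADH dehydrogenase NDI1 3.99-fold and the D-lactate dehydrogenase DLD1 2.42-fold.

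Further down the chain, CYT1, cytochrome c1, read 888.5, 995.0 and 930.8 with air and 278.4, 262.8 and 279.6 without, 3.43-fold lower (adjusted p = 6.92e-07). RIP1, the Rieske iron-sulfur protein, fell 3.31-fold, from 1889 ± 325 to 568 ± 62.3. Of the oxidase, COX12 fell 3.13-fold, COX4 2.77-fold, COX6 2.73-fold, COX8 2.13-fold, COX13 2.11-fold and COX9 1.90-fold, and COX7 was not called, with overlapping arrays. Of ATP synthase, ATP20 fell 3.42-fold, from 210 ± 35.1 to 61.2 ± 7.65, INH1, its inhibitor, 2.54-fold, TIM11 2.12-fold, ATP15 1.79-fold and ATP17 1.74-fold. With median centring 5 of the 16 ATP synthase genes were called lower and 7 of 11 in the bc1 list.

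The tricarboxylic acid cycle fell in part. Of 16 genes 9 fell (56.25%) and 0 rose, against 32.5% and 10.1% of all genes (median -0.89). With median centring 7 fell and 2 rose. CIT3, the minor mitochondrial citrate synthase, read 186.1, 146.3 and 208.9 with air and 10.3, 11.1 and 7.6 without, an 18.7-fold fall (adjusted p = 1.29e-06). All 4 subunits of succinate dehydrogenase, which also belongs to the respiratory chain, fell, among them SDH1, 2.37-fold, from 655 ± 20.9 to 276 ± 11.3, SDH2, 2.44-fold, and SDH3, 2.73-fold. LSC1, of succinyl-CoA ligase, fell 2.85-fold, from 1678 ± 157 to 588 ± 43.9. The 7 genes not called lay between -0.46 and 0.87. They were CIT1, ACO1, IDH1 and IDH2, which lead from acetyl-CoA to 2-oxoglutarate, FUM1 and MDH1, which act on fumarate and malate, and LPD1, a subunit shared with pyruvate dehydrogenase.

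Genes for carbon sources other than glucose had the lowest median of the 36 lists. Of 15 genes of the glyoxylate cycle, gluconeogenesis and their regulators 14 fell, with a median of -4.31. ADH2, the alcohol dehydrogenase that oxidizes ethanol, read 5180.7, 4584.6 and 5719.2 with air and 20.7, 22.2 and 19.3 without, 248-fold lower (log2 -7.96 ± 0.13, adjusted p = 2.57e-09). The transporters of acids followed: SFC1, the succinate and fumarate carrier, fell at least 102-fold, ADY2, an acetate carrier, at least 81.7-fold and JEN1, the lactate permease, 47.1-fold, from 2341 ± 469 to 49.2 ± 6.33. FBP1, fructose-1,6-bisphosphatase, read 291.4, 194.0 and 271.9 with air and 6.2, 6.7 and 6.5 without, at least 37.9-fold lower. IDP2, a cytosolic source of NADPH, fell 36.6-fold, MLS1, malate synthase, 32.5-fold, and ICL1, isocitrate lyase, 10.7-fold. ACS1, the acetyl-CoA synthetase used with air, fell 17.4-fold, from 2047 ± 959 to 108 ± 15.4, MDH2 12.0-fold and PCK1 4.01-fold.

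The activators of these genes fell as well: SIP4 19.9-fold, from 200 ± 40.5 to 10.0 ± 1.68, ADR1 6.43-fold, from 160 ± 40.4 to 24.4 ± 1.21, and CAT8 5.87-fold, from 69.0 ± 15.3 to 11.8 ± 2.81. CIT2, the peroxisomal citrate synthase, was the exception, at 786.5, 334.7 and 494.2 with air and 938.2, 1133.5 and 869.9 without (1.92-fold higher, adjusted p = 0.0227). Its call was lost after quantile normalization, without aerobic array 3 and without anaerobic array 2.

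Peroxisomal oxidation of fatty acids, which makes hydrogen peroxide and acetyl-CoA, fell with it. Of 21 genes of beta-oxidation and the carnitine shuttle 20 fell and 0 rose (median -3.14), and 20 also fell under both other scalings. CTA1, the peroxisomal catalase, read 1617.9, 1325.1 and 1698.4 with air and 5.0, 9.7 and 7.2 without, 218-fold lower (adjusted p = 3.16e-08). FOX2, the multifunctional enzyme, fell 25.1-fold, from 1323 ± 277 to 52.4 ± 7.33, PXA1, a fatty acyl-CoA importer, 21.5-fold, from 220 ± 1.51 to 10.3 ± 1.15, and CRC1, the carnitine carrier of mitochondria, 18.3-fold.

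**Figure D3:**
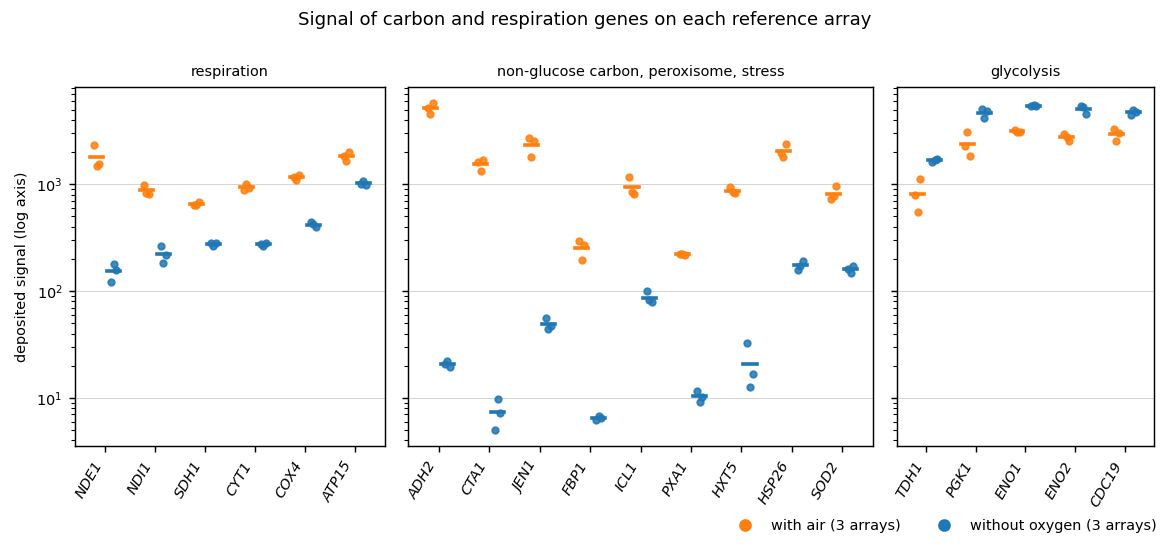
Deposited signal (vertical log axis) of genes of respiration, of non-glucose carbon use, peroxisomes and stress, and of glycolysis on the 3 aerobic (orange) and 3 anaerobic (blue) reference arrays, with points for arrays and bars for means. Signals of different genes are not on a common scale. The genes drawn were picked among called ones and range from ADH2, 248-fold lower, to TDH1, 2.13-fold higher. Their groups do not overlap, as in 52.6% of all genes.

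Glycolysis moved slightly and in the other direction. Of 15 genes 10 rose (66.7%) and 0 fell, against 10.1% and 32.5% of all genes, with a median of 0.47. Called rises numbered 7 after quantile normalization, 15 after median centring and 7 to 10 without any single array. The rises were 2.13-fold for TDH1, from 816 ± 286 to 1668 ± 62.1, 1.99-fold for PGK1, from 2394 ± 651 to 4665 ± 474, and 1.84-fold for ENO2. ENO1 read 3245.7, 3067.4 and 3114.7 with air and 5356.8, 5567.6 and 5370.3 without, 1.73-fold higher, and CDC19, pyruvate kinase, rose 1.61-fold. TDH3, the main glyceraldehyde-3-phosphate dehydrogenase, was not called, at 6097 ± 346 and 7062 ± 504, nor were FBA1, PGI1, PFK2 and PYK2.

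At the branch from pyruvate 6 of 19 genes rose (31.6%) and 4 fell (21.1%), against 10.1% and 32.5% of all genes. The median of -0.09 turned to 0.31 with median centring. MPC3, the mitochondrial pyruvate carrier subunit of respiring cells, read 2565.8, 1854.2 and 2253.6 with air and 339.9, 292.4 and 206.7 without (8.05-fold lower, adjusted p = 1.02e-05), and MPC1 fell 2.79-fold. ADH5, a minor alcohol dehydrogenase, rose 6.35-fold, from 148 ± 16.4 to 956 ± 228, ADH3, the mitochondrial form, 1.47-fold, and PDC6, a minor pyruvate decarboxylase, fell 2.13-fold. ALD4, the mitochondrial aldehyde dehydrogenase, fell 2.43-fold, from 2899 ± 860 to 1159 ± 63.7.

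Glycerol is the sink for surplus NADH without oxygen. GPP1, the phosphatase of the last step, read 198.4, 340.2 and 239.9 with air and 1113.5, 1288.9 and 1591.5 without, 5.21-fold higher (adjusted p = 2.77e-05), and was the 1 rise among 10 glycerol genes, whose median of -0.32 turned to 0.07 with median centring. GPD1 and GPD2, the dehydrogenases before it, were not called, at 535 ± 73.5 against 725 ± 74.1 and at 19.8 ± 5.52 against 23.5 ± 3.06. The 3 falls were in glycerol uptake and use: STL1, the glycerol importer, at least 12.3-fold, GCY1, a glycerol dehydrogenase, 5.06-fold and GUT1, glycerol kinase, 3.58-fold. The shares of rises and falls in the list, 10.0% and 30.0%, were near the 10.1% and 32.5% of all genes.

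Of 19 genes of hexose transport, phosphorylation and sensing 4 fell (21.1%) and 2 rose (10.5%). The share of falls was below the 32.5% of all genes and that of rises near the 10.1%. HXT5, a transporter of slow-growing and starved cells, read 946.0, 838.7 and 822.7 with air and 32.4, 12.7 and 16.6 without, 45.7-fold lower (adjusted p = 2.97e-06). HXT10 fell at least 3.38-fold, the repressor RGT1 2.53-fold and the sensor RGT2 2.03-fold. HXK1 rose 1.34-fold and HXK2 1.62-fold, the latter with overlapping groups, and 1 of them was called after quantile normalization, without aerobic array 2 or 3 and without anaerobic array 2 or 3. The near-identical high-affinity carriers HXT6 and HXT7, which cannot be separated here, were not called and stayed bright, at 3780 ± 203 against 4022 ± 147 for HXT6.

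Storage carbohydrate genes fell in 9 of 18 (50%) and rose in 2 (11.1%), against 32.5% and 10.1% of all genes. Their median was -0.60, and with median centring 4 fell and 4 rose. ATH1, the acid trehalase, read 346.8, 303.7 and 379.9 with air and 56.1, 55.3 and 55.2 without, 6.16-fold lower (adjusted p = 1.48e-07). The trehalase NTH2 fell 4.41-fold, TSL1, of trehalose synthase, 3.63-fold and the glycogen primer GLG2 3.38-fold. The glycogen synthases went in opposite directions, GSY2 1.85-fold lower and GSY1 2.49-fold higher, from 98.2, 68.3 and 56.4 to 275.9, 123.8 and 171.8. GSY1 and TPS3 (1.33-fold) were the 2 rises, and neither was called without aerobic array 3.

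General stress genes fell in 17 of 22 (77.3%), against 32.5% of all genes, with a median of -1.62. Under both other scalings 16 to 19 fell. HSP26, a small chaperone, read 1981.8, 1804.6 and 2356.5 with air and 157.6, 172.8 and 193.2 without, 11.7-fold lower (adjusted p = 1.76e-07). GRE1 fell 36.9-fold, from 621 ± 78.0 to 16.8 ± 1.91, SIP18, a relative of GRE1 induced by water loss, 15.8-fold, GRE2 6.95-fold and DDR2 6.60-fold, from 5161 ± 622 to 779 ± 57.3. SSA2, a constitutive Hsp70, alone rose, 1.48-fold, and its call was lost without anaerobic array 3.

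Of 26 genes that act against peroxide and superoxide 13 fell (50%) and 4 rose (15.4%), against 32.5% and 10.1% of all genes. Their median of -0.50 came to -0.11 with median centring, where 8 fell and 6 rose. SOD2, the mitochondrial superoxide dismutase, read 733.5, 769.3 and 953.8 with air and 159.4, 148.3 and 170.3 without, 5.11-fold lower (adjusted p = 2.78e-06), and TRR2, the mitochondrial thioredoxin reductase, fell 3.92-fold. GPX1, a glutathione peroxidase, fell 7.66-fold, from 415 ± 41.9 to 54.7 ± 10.5, and GRX2 3.79-fold, from 1014 ± 39.3 to 269 ± 30.1. The rises were TSA2, from 47.7 ± 8.14 to 134 ± 17.7, CCS1 (log2 0.83), TRR1 (0.77) and TRX1 (0.59), of which 2 remained called without aerobic array 1 or without any single anaerobic array.

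Of 29 iron, copper and zinc genes 12 fell (41.4%) and 2 rose (6.90%), against 32.5% and 10.1% of all genes. Their median was -0.42, against -0.30 for all genes, and came to -0.02 with median centring. CTR3, a copper transporter, read 1336.4, 1126.9 and 1418.4 with air and 62.2, 51.7 and 38.8 without, 25.8-fold lower (adjusted p = 7.81e-07), and the second copper transporter CTR1 fell 4.02-fold. FRE4, a metalloreductase, fell 5.90-fold and ARN1, a siderophore carrier, 3.04-fold. FET4, the low-affinity iron carrier, which unlike the high-affinity system needs no oxygen, read 6.7, 9.1 and 15.3 with air and 183.3, 120.0 and 139.4 without, at least 14.3-fold higher (adjusted p = 2.73e-05). The other rise was IZH2, 3.54-fold, from 215 ± 73.5 to 732 ± 80.8.

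Synthesis of NAD from tryptophan uses oxygen. Of 10 genes of this route and of nicotinate uptake 4 rose (40%) and 0 fell (median 0.35). Among all genes 10.1% rose and 32.5% fell. BNA2, the first, oxygen-using step, read 133.4, 172.6 and 184.6 with air and 496.6, 420.2 and 464.8 without, 2.84-fold higher (adjusted p = 9.20e-05). TNA1, the nicotinate importer, rose 2.57-fold, from 536 ± 127 to 1352 ± 77.4, NRT1, which imports nicotinamide riboside, 2.47-fold and BNA4, another oxygenase, 1.46-fold.

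Vitamin genes fell in 10 of 17 (58.8%) and rose in 1 (5.88%), against 32.5% and 10.1% of all genes (median -0.65). With median centring 7 fell. BIO5, the importer of biotin precursors, read 168.7, 105.6 and 169.3 with air and 7.6, 9.0 and 8.2 without, 17.5-fold lower (adjusted p = 6.91e-07). The synthesis genes next to it, BIO4 and BIO3, fell 3.16-fold and 2.95-fold, the biotin importer VHT1 2.27-fold and the thiamine importer THI7 1.63-fold. BIO2, biotin synthase, was the rise, 1.64-fold, from 347 ± 72.8 to 563 ± 57.1.

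Of 24 amino acid and ammonium permeases 8 rose (33.3%) and 7 fell (29.2%), against 10.1% and 32.5% of all genes. The median of -0.03 turned to 0.28 and 0.36 under the other scalings. DIP5, a permease of acidic amino acids, read 20.6, 31.9 and 34.2 with air and 894.4, 626.5 and 596.7 without, 24.6-fold higher (adjusted p = 1.26e-06). BAP3, a branched-chain amino acid permease, lay under the controls with air, at 2.6, 2.3 and 0.4, and read 136.9, 63.6 and 108.1 without, at least 16.4-fold higher. AGP1, a broad permease, rose 7.23-fold, from 69.5 ± 17.1 to 499.7 ± 106. PUT4, the proline permease, read 816.6, 554.1 and 919.2 with air and 11.3, 10.0 and 14.7 without, 63.0-fold lower (adjusted p = 1.16e-06). Proline breakdown needs respiration. The ammonium permease MEP2 fell 3.70-fold, from 482 ± 61.3 to 132 ± 30.9. In phosphate supply 4 of 14 genes fell and 0 rose, a share of falls below the 32.5% of all genes, and 2 fell under either other scaling. The largest fall was that of the sodium-coupled importer PHO89, 4.09-fold, from 185 ± 6.46 to 45.3 ± 4.41, and 2 fell without anaerobic array 3.

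Of 24 flocculation and wall genes 4 rose and 4 fell, 16.7% each against 10.1% and 32.5% of all genes. With median centring 11 rose and 1 fell. FLO11, the adhesin of invasive growth and biofilms, read 56.7, 33.0 and 40.8 with air and 1452.3, 2341.7 and 1990.7 without, 44.6-fold higher (adjusted p = 5.49e-07). CIS3 rose 2.99-fold, from 433 ± 70.8 to 1287 ± 60.2, SRL1 2.50-fold and SCW4 1.83-fold. The falls were GAS4 (log2 -0.86), FIT1 (-0.71), PST1 (-0.59) and FLO1, the last of these dim, at 7.87 ± 3.09 with air and 0.2 on each anaerobic array, and 2 of the 4 stayed called without anaerobic array 2 or without anaerobic array 3.

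In pyrimidine synthesis URA1, the dihydroorotate dehydrogenase that in this yeast needs no oxygen, fell 1.34-fold, from 312 ± 46.6 to 231 ± 24.2 (adjusted p = 0.0365). Among 11 genes 3 rose (27.3%) and 4 fell (36.4%), against 10.1% and 32.5% of all genes, all by less than 2-fold. The median of -0.02 turned to 0.37 with median centring. After quantile normalization 0 of them were called lower, and the falls were 2 without aerobic array 1 and 1 without anaerobic array 1 or 3. The rises were 1 without aerobic array 1.

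Ribosomal protein genes of the cytosol rose in 20 of 80 (25%) and fell in 0, against 10.1% and 32.5% of all genes, a median of 0.26. This small shift rested on scaling and on single arrays: quantile normalization gave 5 rises and 2 falls with a median of 0.02, median centring 65 rises, and the rises were 12 without aerobic array 3, 9 without anaerobic array 2 and 8 without anaerobic array 3. The named examples are RPL37B, 1.82-fold, from 1842 ± 283 to 3335 ± 313, RPS28B, 1.92-fold, and RPS7B, 1.62-fold. Many such genes come in near-identical pairs whose signals cannot be separated. Of 65 mitochondrial ribosomal protein genes 13 fell (20.0%) and 3 rose (4.62%), both below the 32.5% and 10.1% of all genes. Their median of -0.24, against -0.30 for all genes, came to -0.01 after quantile normalization and to 0.15 after median centring. Without anaerobic array 3, 8 fell. MRPL22 and MRPL10 gave the largest called falls, at -0.98 and -0.93, and MRPL4 the largest rise, at 1.52.

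Genes that mark mating type were read next. MFA1, MFA2 and STE2, genes of a cells, read 2261 ± 720, 1846 ± 277 and 195 ± 33.6 with air, and MF(ALPHA)1, MF(ALPHA)2 and STE3, genes of alpha cells, 56.3 ± 11.2, 4.73 ± 0.929 and 37.4 ± 7.56. Of the 7 a-cell genes 3 rose without oxygen (42.9%), against 10.1% of all genes. Among them were BAR1, the protease that degrades alpha factor, 2.87-fold, from 167 ± 55.7 to 464 ± 64.3, and STE2, 1.97-fold. Of the 4 alpha-cell genes 0 rose and SAG1 fell 1.37-fold, and their median of -0.09 turned to 0.30 under both other scalings.

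**Figure D4:**
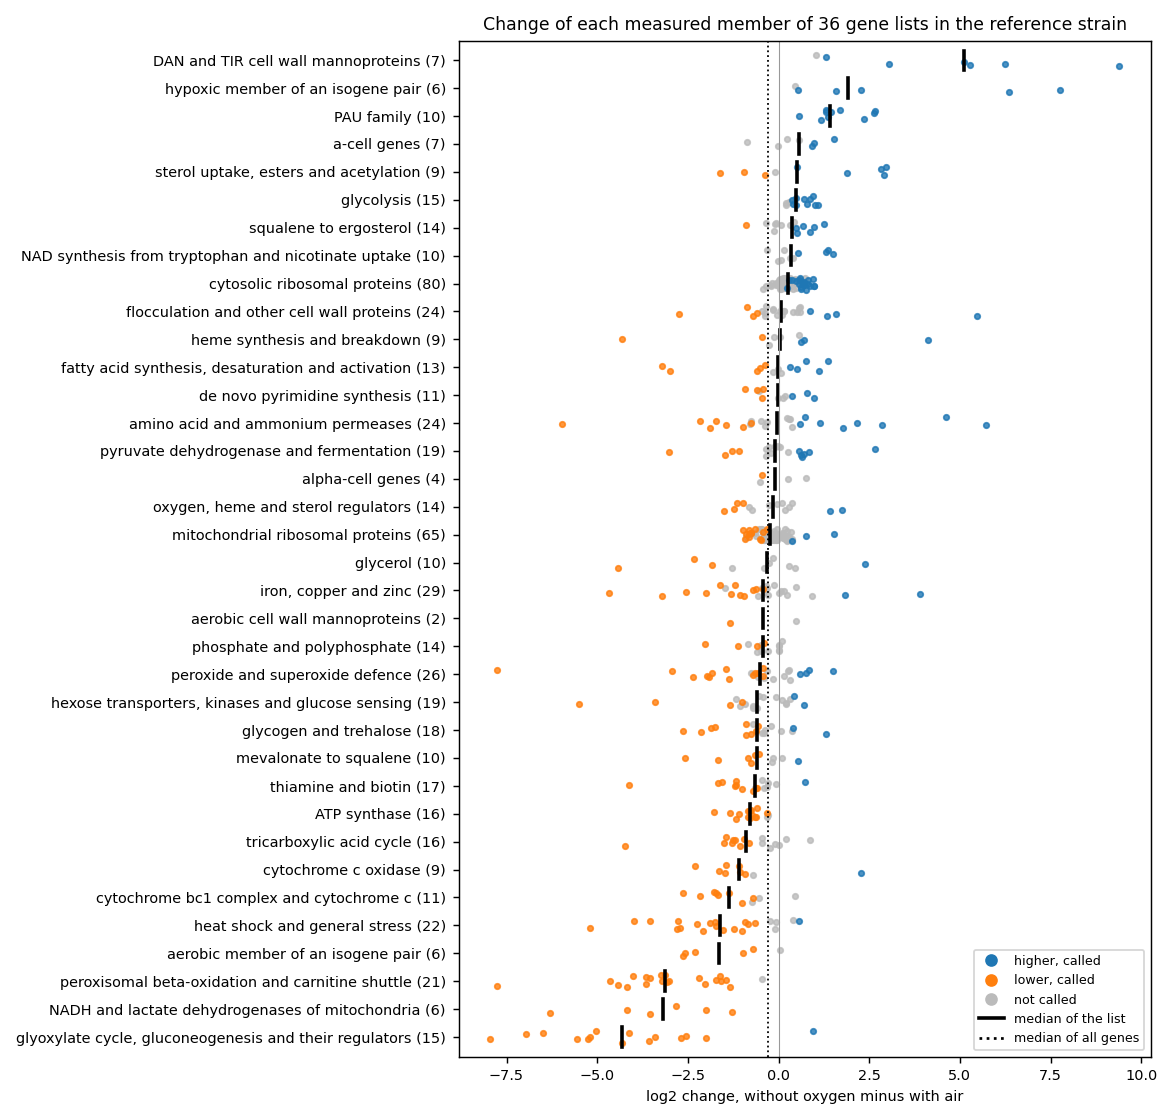
Log2 change without minus with oxygen (horizontal axis) of each measured member of 36 gene lists, ordered by list median, with the number measured after each name. Black bars are list medians, from -4.31 for the glyoxylate cycle and gluconeogenesis to 5.12 for DAN and TIR, and the dotted line is the median of all genes at -0.30.

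The largest single changes included genes outside these families. Among the 12 largest rises were OPT2, an oligopeptide transporter, with 1.3, 0.4 and 1.3 with air and 126.7, 42.6 and 95.6 without (at least 13.4-fold), and HMS1, a transcription factor of pseudohyphal growth, with 0.4, 0.3 and 0.3 against 79.3, 46.2 and 46.8 (at least 9.27-fold). HUG1, an inhibitor of ribonucleotide reductase, rose 43.0-fold, from 14.0 ± 3.59 to 591 ± 70.7. YML083C, an uncharacterized gene, lay under the controls on all aerobic arrays and rose at least 7.90-fold, to 64.0, 38.4 and 43.2.

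Among the 12 largest falls was FDH1, formate dehydrogenase, on a probe set shared with FDH2. Its signals were 2303.3, 1610.6 and 1923.7 with air and 1.0, 1.5 and 4.0 without (at least 370-fold lower, adjusted p = 2.46e-07). Another probe set of FDH1, also of a kind shared between sequences, averaged 1070 with air and 0.5 without and was called lower too. A further, unshared one lay at background in both groups. SUE1, needed to degrade unstable cytochrome c, read 895.9, 570.5 and 872.3 with air and 5.6, 5.4 and 5.1 without, at least 129-fold lower. SPG1 and SPG4, named for survival in stationary phase, fell at least 70.6-fold and 50.7-fold, YIG1, which affects glycerol-3-phosphatase, at least 53.9-fold and CRF1, a corepressor of ribosomal protein genes, at least 31.9-fold.

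Whether these differences recurred was read from the other 6 arrays, IMZ383 without oxygen against IMZ305 with air. These share no array with the reference contrast but share its fit. BioB read 7.9 to 11.9 on the IMZ305 arrays and 42.9 to 86.2 on the IMZ383 arrays, so oxygen and BioB level cannot be told apart there. Those strains differ from each other and from the reference in genotype, so a difference that did not recur cannot be assigned to oxygen, genotype or an interaction. In that comparison 505 genes rose (8.93%) and 1197 fell (21.2%). Of the 570 rises in the reference, 232 recurred, 40.7% of the reference list and 45.9% of the other, and 20 fell there. Of the 1837 falls, 857 recurred, 46.7% and 71.6% of each list, and 46 rose there. The difference between both oxygen differences was itself called in 126 of the 570 rises (22.1%) and 387 of the 1837 falls (21.1%). Over all genes it was called in 8.10% in the higher and 3.41% in the lower direction, and in 5.92% of probe sets in the higher. Of the 126, 119 were lower, and of the 387, 368 were higher. The reference change is subtracted in this difference, so genes picked for that change tend to the opposite sign. For that reason no effect of strain is read from such counts here or below.

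Many hypoxic, respiratory and carbon genes recurred. The PAU genes did so in part, as 5 of 10 rose and 3 fell between the engineered strains, and 5 differences were called, all lower there. ANB1 (log2 7.75 and 6.36), HEM13 (4.12 and 3.17), AUS1 (2.92 and 2.91), FET4 (3.89 and 4.48) and FLO11 (5.48 and 4.68) rose in both, with no called difference between them. FET4 lay under the controls on 1 aerobic array of each strain, so its values are approximate. HMS1 also rose in both, but lay under the controls on all aerobic arrays, so the sizes cannot be compared. ADH2 (-7.96 and -7.27), CYT1 (-1.78 and -1.99) and ICL1 (-3.42 and -3.44) fell in both, with no called difference either. TIR1 rose in both but less in the engineered strains, by 1.70 log2 units (adjusted p = 0.00399). The difference for DAN1 was also called (adjusted p = 0.0252), but its size is not fixed, since 2 aerobic reference values lay under the controls. CTA1 fell less, by 2.35 units (adjusted p = 0.00206).

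Other groups recurred in part. In stress genes 8 of 22 fell between the engineered strains, against 21.2% of all genes, and 13 of 22 differences were called, all higher there. HSP26 was -3.55 in the reference and -0.22 between the engineered strains (difference adjusted p = 1.55e-05), SIP18 -3.98 and -0.84, and DDR2 -2.72 and -0.43. In the genes from squalene to ergosterol 0 of 14 rose and 6 fell, and 5 differences were called, as for NCP1, 1.26 against -0.29 (adjusted p = 0.00112). ATF2 was 2.84 against -0.31 (adjusted p = 3.36e-05). BIO5 was -4.13 against -1.03, AGP1 2.85 against 0.49, and MEP2 -1.89 against 0.46, each with a called difference.

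Among genes called in the reference, the 5 smallest adjusted p-values of that test belonged to ALD5, ALD4, FDH1, ALD3 and ALD2. The 4 ALD genes are deleted in IMZ305, which sets their value there. FDH1 was at least 370-fold lower without oxygen in the reference and 3.70 log2 units higher in IMZ383 without oxygen than in IMZ305 with air. In the reference ALD2 and ALD3, cytosolic aldehyde dehydrogenases of stressed cells, fell 1.94-fold and 2.68-fold, and ALD5, a mitochondrial form, rose 1.56-fold, from 276 ± 51.1 to 426 ± 25.1.

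**Figure D5:**
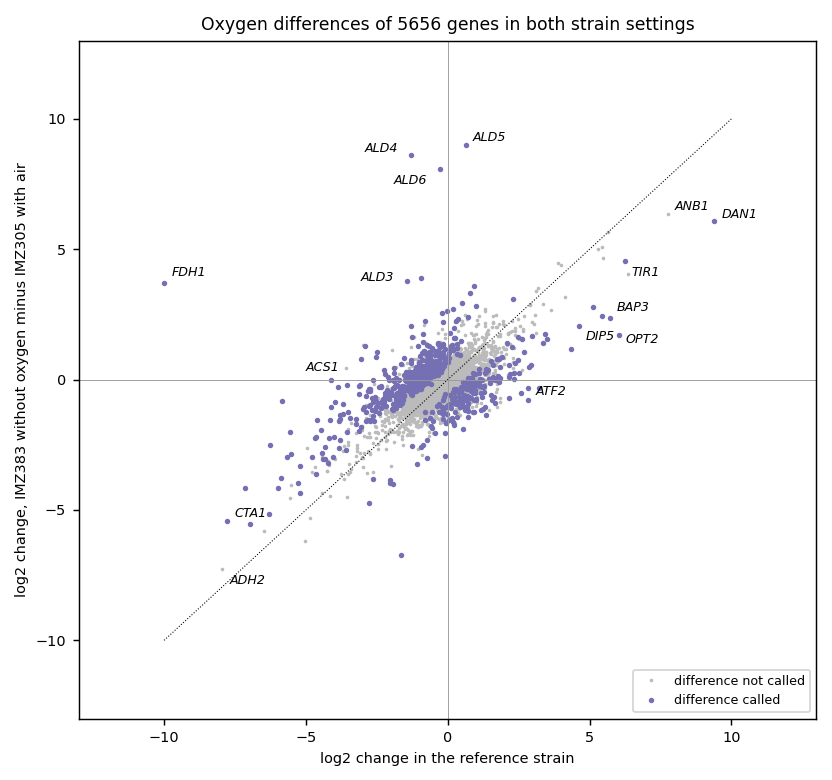
Log2 change without minus with oxygen in the reference strain (horizontal axis) against that between IMZ383 without oxygen and IMZ305 with air (vertical axis) for 5656 genes, with the line of equal change dotted; purple marks genes whose difference was called. ANB1 and ADH2 lie near the line, ACS1 and ATF2 lie near 0 on the vertical axis, and FDH1 and the ALD genes deleted in IMZ305 stand apart.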

How the data were processed

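RNA of 12 chemostat cultures had been labelled with biotin by the 3' IVT method from 200 ng and hybridized singly to Affymetrix arrays, per the labels' protocols. The deposited values are 1 linear signal intensity per probe set and array, already scaled by the authors; the software is not given in the sources used here. Gene names came from the platform annotation, updated through RefSeq gene tables, and 2443 probe sets named no gene and 328 named several. Where a gene had several probe sets, the brightest over all arrays stood for it.

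Signals under the 10th percentile of all yeast values, 1.1, were set to it, and log2 values were fitted with limma 3.58.1 in R 4.3.3 over all 4 groups, with the 60 control probe sets left out and Benjamini-Hochberg adjustment over 9275 probe sets. The script was tested on simulated data. Where any array of the dimmer group lay under its highest non-target control, a fold is given as "at least", with that control level in place of each value under it. The number of arrays, 3 a group, limits the precision.

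The members and the 36 gene lists were chosen with earlier results of these data known. Named were the 12 largest rises and falls with groups that did not overlap and a mean above the 25th percentile, up to 5 called members of each list by adjusted p, every member of lists of 15 or fewer as far as described, and the 5 called genes with the smallest adjusted p for the difference between strains. HXK2, GSY1, TPS3, SSA2, IZH2, BIO2, GAS4, FIT1, PST1, TRX1, TRR1, CCS1, TSA2 and the uncalled members of longer lists were named after their values were seen. Same-numbered cultures did not deviate together (r = 0.00702, -0.0106 and -0.0299 between the reference groups), so the numbers were not used as pairs. Alternatives were other scalings, floors and filters, 1 probe set per gene, only the groups compared, the replicate block, an intensity trend, array weights, stricter thresholds and each array left out. A block on BioB level and a fit on the reference arrays with high BioB were chosen after seeing the data. Promoter and protein sequences were not analysed here.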

Additional observations from a re-analysis of the deposited data

Results flagged for a closer look

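For 79 of 227 genes named here the change without oxygen differed between the engineered and the reference strains by limma's test of that difference, at an adjusted p under 0.05. Each value below is the log2 change between IMZ383 and IMZ305 minus that of the reference, so that a value above 0 is a smaller fall, a larger rise or a turn upward. It lay above 0 for 53 genes and below 0 for 26. Over all genes the difference was called in 8.1% in the higher and 3.41% in the lower direction. These shares are no fair measure for the named genes. Many were named for their reference change, which is subtracted here, so their values tend to the opposite sign of that change. Some were named for this difference itself. No effect of strain is read from these counts or signs. For OPT2, BAP3, DAN1, FBP1, SFC1, YIG1, SUE1, SPG1, ACS1, ALD2, CRF1, ALD3, ALD5, ALD4 and FDH1 at least 1 array of a group lay under its non-target controls, so the size of their difference depends on the floor. Genotype, oxygen and BioB level change together between IMZ305 and IMZ383, so their parts cannot be told apart.

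Among hypoxic, wall and adhesion genes the difference was -3.32 for DAN1, -2.34 for TIR3, -1.70 for TIR1, -1.07 for PAU4, -1.49 for CIS3 and -1.06 for SRL1. In sterol and lipid genes it was -3.15 for ATF2, -2.10 for ERG4, -1.55 for NCP1, -1.30 for ARE1, -1.05 for ERG24, -0.77 for ERG28, -0.75 for ERG26 and -0.69 for MVD1. It was positive in 0.44 for FAS1, 0.81 for IDI1, 1.00 for HMG1 and 1.02 for ARE2 of the same pathways. In heme breakdown it was 1.26 for HMX1, and in the respiratory chain -2.36 for COX3, -1.74 for COX1 and -1.20 for CYC1 against 1.14 for CYB2 and 1.92 for NDE2.

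In carbon and peroxisome genes, which fell in the reference, the difference was 0.83 for IDP2, 0.88 for MDH2, 1.01 for FOX2, 1.29 for FBP1, 1.43 for SFC1, 1.53 for ADR1, 1.60 for PXA1, 1.71 for SIP4, 2.35 for CTA1, 2.65 for HXT5 and 4.12 for ACS1. ACS1 is deleted in both engineered strains. In hexose phosphorylation, glycerol and storage carbohydrate genes it was 0.51 for HXK1, 1.22 for ATH1, 1.49 for NTH2, 1.60 for TSL1, 1.91 for GUT1, 2.05 for GCY1 and 2.33 for GSY2.

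In stress and oxidant defence genes it was 0.74 for GRX2, 1.26 for GRE2, 1.27 for SOD2, 1.88 for GPX1, 1.89 for GRE1, 2.29 for DDR2, 3.14 for SIP18 and 3.33 for HSP26, with -1.61 for TSA2. In vitamin and metal genes it was 1.15 for THI7, 1.32 for BIO3, 1.35 for BIO4, 3.10 for BIO5, 1.40 for CTR1, 1.75 for FRE4 and 2.44 for CTR3.

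In permeases and phosphate import it was -3.36 for BAP3, -2.55 for DIP5, -2.37 for AGP1 and -1.92 for PHO89 against 1.84 for PUT4 and 2.35 for MEP2. In ribosomal protein and pyrimidine genes it was -1.53 for MRPL4, -1.14 for RPL37B and 1.44 for URA1. Of the largest single changes it was -4.33 for OPT2, -3.004 for HUG1, 2.12 for YIG1, 2.68 for SPG4, 2.99 for SUE1, 3.76 for SPG1 and 5.03 for CRF1. For FDH1 it was 13.7, and for the genes deleted in IMZ305 4.86 for ALD2, 5.21 for ALD3, 8.36 for ALD5 and 9.88 for ALD4.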

How the results depend on the processing

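Of the 227 genes named, 198 were called, and of these 135 kept direction and call under every alternative run, 167 under both other scalings and 173 without each array in turn. Calls reversed in sign, without passing the test, for TGL1 (0.029 after quantile normalization and 0.033 after median centring) and for ACC1 (0.025 after median centring). In the reference, quantile normalization gave 1367 lower probe sets, and median centring 2228 higher and 1067 lower, against 1018 higher and 2157 lower as deposited. With 1 probe set per gene, which tests fewer, 619 were higher. At least 2-fold changes numbered 623 and 1050, and an adjusted p under 0.005 left 507 and 1151. Without any 1 array 788 to 992 were higher and 1642 to 2122 lower. The BioB block gave 738 and 1501, and the arrays with high BioB 804 and 1572. The replicate block gave 953 higher and 2027 lower, 873 and 1375 between the engineered strains, and 412 and 222 for the difference, and the numbers do not pair the cultures.

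Between the engineered strains 938 probe sets were higher and 1486 lower. Median centring gave 879 lower, 1 probe set per gene 545 higher, array weights 1432 and 2231, the 2-fold limit 586 and 720, and the adjusted p under 0.005 424 and 632. Without any 1 array they were 699 to 807 and 1051 to 1351. For the difference between both oxygen differences 549 were higher and 274 lower. Median centring gave 322 higher, array weights 936 and 513, and the adjusted p under 0.005 130 and 55. Without any 1 array they were 322 to 636 and 157 to 361, and they moved by over 1.5 times without IMZ305 array 1 (348 and 167), IMZ305 array 2 (322 and 157) and reference anaerobic array 3 (343 and 174). Except where stated, the cause was not tested. Signals under the non-target controls give only a bound, and 3 arrays a group limit small changes.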

Other observations

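Families outside the lists were read by gene name after their values were seen, and are given as descriptions. Of 10 ADE genes of purine synthesis 7 rose and 1 fell, with a median of 0.81 on the log2 scale. Of 14 VMA genes of the vacuolar ATPase, which acidifies the vacuole, 5 rose and 0 fell (median 0.48). Of 27 PEX genes, which form peroxisomes, 20 fell and 0 rose (median -1.01). Of 36 ATG genes of autophagy 21 fell (median -0.86), and of 41 VPS genes of vacuolar protein sorting 21 fell (median -0.55), with 0 rises in either. Over all genes 10.1% rose and 32.5% fell.

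Of 19 measured genes of the mitochondrial genome 2 rose and 0 fell, with a median of 0.62. That share of rises, 10.5%, was near the 10.1% of all genes, and the 2 that rose are given. COX1, an oxidase subunit made in mitochondria, read 1177.5, 1146.8 and 724.2 with air and 2366.8, 1621.3 and 1978.6 without oxygen. COX3, another such subunit, read 11.6, 16.8 and 19.4 with air and 49.1, 51.1 and 40.0 without. The groups did not overlap in either gene.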
